A study of Homo sapiens with 27 samples.

Results

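The MGMT-transfected and the wild-type (WT) lines of LN-229, a human glioblastoma cell line, were compared under solvent alone. The members were the 12 solvent libraries of the 27 libraries in the series: 6 of the MGMT line and 6 of the WT line, chosen by their labels. The WT line is the transfection control of the MGMT line and not the parental culture. Both lines received 1% DMSO, the solvent of temozolomide (TMZ), either 1 time or 3 times at 4 h intervals, with DNA collected 24 h from the start of exposure. Each line and exposure number had 3 replicates, which the series describes as biological. The labels do not say whether the MGMT line is 1 clone. Of the other 15 libraries, 12 came from the same lines exposed to 1 mM TMZ, and 3 came from purified (naked) DNA of MGMT, WT and non-transfected cells treated with TMZ.

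O6-methylguanine is a base lesion left by alkylating drugs such as TMZ. The MGMT protein (O6-methylguanine-DNA methyltransferase) transfers the methyl group to itself, which restores guanine and consumes the protein. Glioblastoma cells that do not express MGMT keep the lesion, and mismatch repair then acts on the mispairs it causes at replication. In O6-MeG-seq, fragments with the lesion are captured by an antibody and a high-fidelity polymerase stops at the modified base, so that the end of the copy marks its site. Under solvent there is no drug to leave such lesions, and the sites that a library still lists are called background marks here. Their number in a region also follows how much DNA of that region entered the library.

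The 12 lists held 597437 to 4035587 distinct sites with a score of 30 or more on the autosomes and the mitochondrial genome (M). No site occurred more than 1 time in a list, so the values are numbers of sites and not of reads. Replicate 1 after 1 exposure stood apart in both lines: 48.64% (MGMT) and 47.25% (WT) of its sites on these chromosomes reached that score, against 68.45% to 85.83% in the other 10 libraries. The MGMT library of that replicate shared 17.96% of its autosomal sites with the TMZ library of the same line, exposure and number, and the WT library shared 10.5%, against 0.178% to 4.16% in the other 10 pairs. Solvent libraries also shared sites with each other, most between WT and MGMT replicate 1 after 3 exposures, that is, across the lines compared. They shared 50174 sites, 4.45% of the shorter list. This was 83.2 times the number expected of sites placed at random, and 26.2 times the ratio of the median pair. Libraries of 1 line also shared sites across exposure numbers. WT replicate 2 after 1 exposure shared 37213 sites with WT replicate 1 after 3 (47.1 times the expected number). MGMT replicate 2 after 1 exposure shared 42919 with MGMT replicate 1 after 3 (24.5 times). The tests below treat the libraries of a line as independent across exposure numbers. Shared sites were kept in both libraries, and their part in the results was not tested. The base shares that replicate 1 after 1 exposure set apart, the named arms and the counts of bins and arms are given with and without that replicate.

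The first question was whether the lines differed in the bases that carried background marks. In the MGMT line 23.9% ± 9.77 (SD, n = 6) of autosomal sites lay at G, and in the WT line 21.5% ± 3.50 (SD, n = 6). The lowest, median and highest libraries had 18.99%, 19.6% and 43.7% in the MGMT line, and 19.1%, 19.7% and 27.8% in the WT line. The 43.7% was replicate 1 after 1 exposure, and the other 5 MGMT libraries lay between 18.99% and 22.1%, and the 6 WT libraries between 19.1% and 27.8%, so the ranges overlapped. The difference of 2.36 percentage points did not exceed the replicates' spread (p = 0.80 by an exact permutation test, two-sided, with labels permuted inside each exposure number; 0.86 after adjustment over the 10 single values). Without replicate 1 after 1 exposure it was -0.27 points, with 19.9% ± 1.26 and 20.3% ± 1.91 (SD, n = 5 each). T was the most frequent base in every library but MGMT replicate 1 after 1 exposure, where G was. The share of T was 31.4% ± 4.62 (MGMT) and 32.6% ± 1.57 (WT) of sites (SD, n = 6). A had 26.4% ± 2.35 and 26.9% ± 1.24, and C had 18.3% ± 2.96 and 18.9% ± 1.26 (SD, n = 6). Whether C or G had the lower share varied between libraries of either line. None of the A, C and T shares differed between the lines beyond the spread (adjusted p = 0.86 for each by the same exact permutation test, in which the smallest p that 400 arrangements allow is 0.005).

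The base 5′ of a marked G was known for 4.67% to 5.90% of the G sites, where a TMZ or naked DNA library had marked the neighbouring position. Marks on either strand were used, and G was the most marked base in each of those libraries (32.6% to 70.9%). The known neighbours are thus a selected subset, and the shares below do not give a preference over all G sites. A purine (A or G) preceded 71.9% ± 6.86 of them in the MGMT line and 71.5% ± 4.38 in the WT line (SD, n = 6), a difference of 0.44 percentage points (exact permutation test, p = 0.79, adjusted 0.86). The MGMT libraries had 68.9%, 69.1% and 85.9% as lowest, median and highest, and the WT libraries 67.9%, 69.7% and 78.9%. Again both highest values were those of replicate 1 after 1 exposure. Without that replicate the shares were 69.1% ± 0.263 in the MGMT line and 70.0% ± 2.72 in the WT line (SD, n = 5). TMZ libraries supplied the neighbours and also share sites with these 2 libraries, and the part of that sharing in the purine share was not tested.

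**Figure D1:**
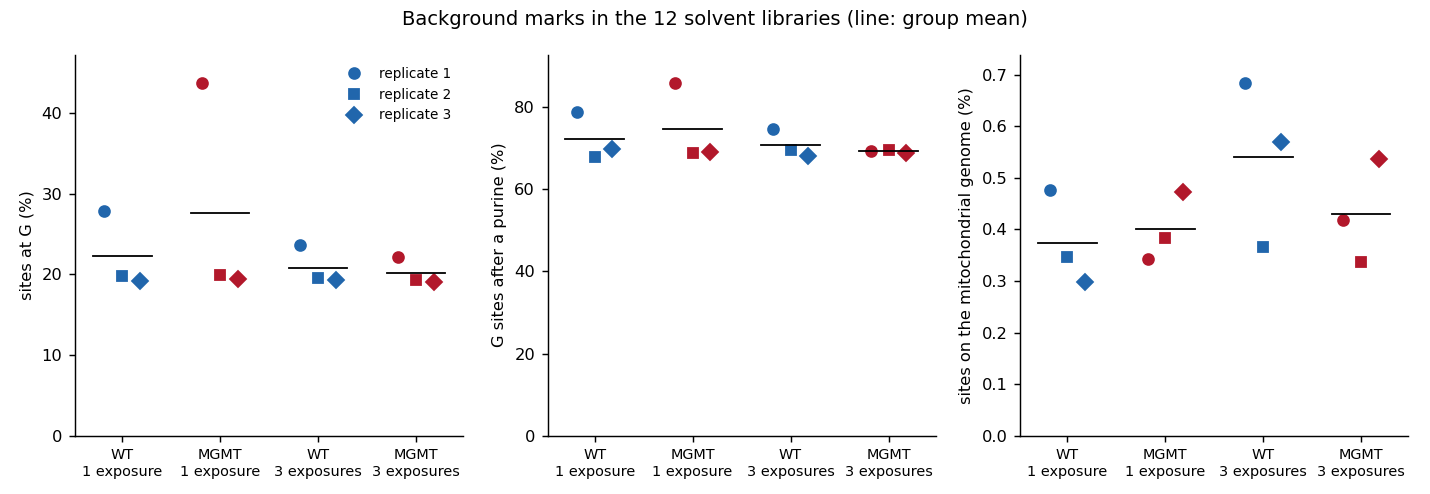
Percent of autosomal sites at G, percent of G sites preceded by a purine and percent of sites on the mitochondrial genome in each of the 12 solvent libraries (vertical axes, from 0), by line and exposure number (horizontal axis); symbols are replicates and bars are group means. MGMT replicate 1 after 1 exposure is highest in the first 2 panels, at 43.7% and 85.9%, and the lines overlap in every panel. The second panel holds only G sites with a known 5′ neighbour.

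Differences in strand and in location did not exceed the spread of replicates. On autosomes 50.1% of sites lay on the forward strand in either line, with a difference of 0.0079 percentage points (exact permutation test, p = 0.76, adjusted 0.86). On M the forward strand held 51.6% ± 4.68 (MGMT) and 52.0% ± 2.10 (WT) of sites (SD, n = 6; p = 0.86, exact permutation, adjusted 0.86). The share of all sites that lay on M ran from 0.336% to 0.537% in MGMT libraries and from 0.297% to 0.684% in WT libraries. Its log2 differed by -0.096 between the lines (exact permutation test, p = 0.64, adjusted 0.86). M has 33138 positions over both strands and a library listed up to 13954 of them, so the number of M sites has an upper limit that the autosomal number does not reach. Site density inside protein-coding genes was compared with that outside them on the log2 scale. At the score limit used it was higher by 0.22 ± 0.051 (MGMT) and 0.21 ± 0.036 (WT) (SD, n = 6). The lines differed by 0.0071 (exact permutation test, p = 0.69, adjusted 0.86). With sites of every score the value ran from -0.25 to 0.036 in MGMT libraries and from -0.37 to 0.042 in WT libraries. Its sign thus depended on the score limit, and a general excess of marks inside genes is not shown.

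The MGMT gene itself spans positions 129467241 to 129770983 of chromosome 10 (GRCh38). It held 109 to 280 sites in MGMT libraries and 54 to 348 in WT libraries. The log2 rate per 1e6 autosomal sites was 6.55 ± 0.218 in the MGMT line and 6.35 ± 0.169 in the WT line (SD, n = 6). The difference of 0.20 was positive in 5 of 6 same-numbered pairs and did not pass the test (exact permutation, p = 0.070, adjusted 0.70). Without replicate 1 after 1 exposure it was 0.13 (exact permutation, p = 0.15, adjusted 0.97), and leaving out each library gave 0.11 to 0.26. In naked DNA, with 1 library each, the log2 rate was 6.94 (MGMT), 6.80 (WT) and 6.92 (non-transfected). The gene table gives no exons, so sites from a transfected copy could not be told from those of the chromosomal gene.

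The spread of the marks over the genome differed between the lines. The 2 lines differed over large parts of chromosomes 1, 2, 3, 5, 7, 15, 16, 17 and 20, in steps that ran over many megabases. Site density was compared in 1 Mb bins with limma's voom, with 4 group means and Benjamini-Hochberg adjustment over all bins. Of 2752 bins tested, 838 differed between the lines at an adjusted p of 0.05 or less (30.5%). Density was higher in the MGMT line in 500 bins (18.2%) and lower in 338 (12.3%). Without replicate 1 after 1 exposure the counts were 554 and 477, and without the MGMT library of that replicate alone 527 and 510. They were 602 and 605 with sample quality weights and 556 and 500 after a G+C loess, so which direction held more bins depended on the setting. The G+C share of a bin is here that of its marked sites in the solvent libraries, not that of the genome sequence. From G sites alone 412 bins passed, 274 higher and 138 lower, and with sites of every score 632, 406 higher and 226 lower. The differences in bins ran from -0.69 to 0.97 on the log2 scale, with a median of -0.0068. A dependence of the difference on exposure number was not detectable in bins: 0 of 2752 (0.0%) passed in limma's voom test of the interaction and 14 had an unadjusted p under 0.05. With limma-trend the counts were 0 and 12, and with sample quality weights 0 and 218. With no interaction, a share of 0.05 of bins would have an unadjusted p under 0.05. The 14 and 12 fall below that share and the 218 above it. The first 2 tests were thus conservative and do not show that exposure number had no effect. How many marks a region's DNA carried and how much of that DNA entered the library cannot be told apart in these counts.

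**Figure D2:**
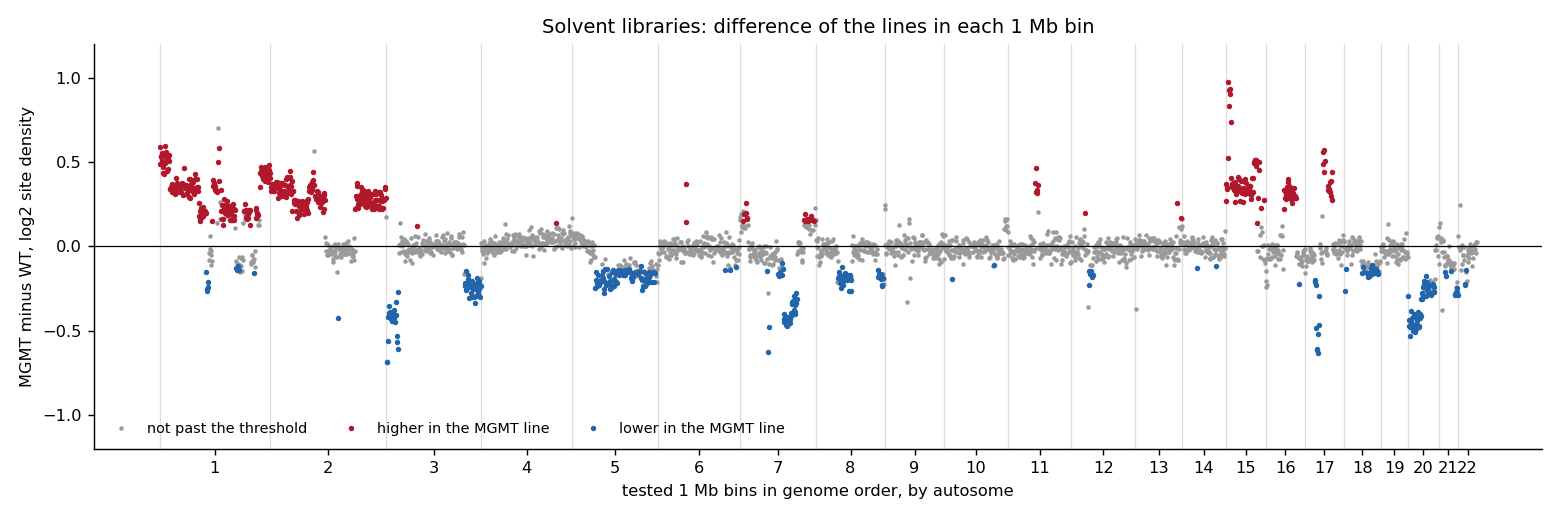
MGMT minus WT difference of log2 site density (vertical axis) for each of the 2752 tested 1 Mb bins in genome order (horizontal axis, by autosome) over the 12 solvent libraries; red and blue points passed the test. Blocks of called bins are seen on chromosomes 1, 2, 3, 5, 7, 8, 15, 16, 17, 18 and 20, and most bins of chromosomes 4, 6, 9, 10, 13, 14 and 19 lie near 0.

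Whole chromosome arms were compared next. An arm's density is given as sites per 1 Mb bin per 1e6 sites, scaled by the trimmed mean of log ratios between libraries. Of 40 arms, 14 differed between the lines (limma, adjusted p at or below 0.05; 35.0%), 6 higher in the MGMT line (15%) and 8 lower (20%). With total autosomal sites as the library size 20 arms passed, and the split was 6 higher and 14 lower (30% higher, against 42.9%). These 14 arms held 45.4% of the tested bins and 89.6% of the called ones. Since arms and bins come from the same sites, this is a description. Of arms that did not pass, 20q had 58.3% of its bins called and 17q 37.9%. In 13 of the 14 arms all 6 same-numbered pairs had the same sign, and in 12 the libraries of the lines did not overlap. The exceptions to the latter were 16q and 21q. Of the arms that did not pass, 5p (0.018) and 7p (0.022) also had the same sign in all 6 pairs, and the lines overlapped in every such arm. The same libraries called the arms, so these counts are a description and not further support. The interaction of line and exposure number passed in 0 of 40 arms (0.0%, limma) and had an unadjusted p under 0.05 in 1.

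Among the higher arms, 15q, 2p and 1p stood near a 1.2-fold difference. On 15q the MGMT libraries had 428, 432 and 440 sites per bin as lowest, median and highest, and the WT libraries had 341, 347 and 361. The log2 difference was 0.31 ± 0.014 (SE, n = 6 and 6; limma adjusted p = 5.7e-08), a fold of 1.24. On 2p the MGMT libraries had 396, 417 and 421 and the WT libraries 332, 334 and 339, a difference of 0.31 ± 0.015 (SE; limma adjusted p = 6.3e-08). On 1p the values were 392, 397 and 402 against 314, 321 and 336, a difference of 0.30 ± 0.016 (SE; limma adjusted p = 1.1e-07). In each of these arms the lowest MGMT library lay above the highest WT library. The differences were smaller on 1q (0.18 ± 0.020, SE), 16q (0.15 ± 0.035) and 2q (0.14 ± 0.012). Without replicate 1 after 1 exposure the 6 arms differed by 0.33 (15q), 0.32 (2p), 0.31 (1p), 0.20 (1q), 0.14 (16q) and 0.15 (2q), and all passed (limma).

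Among the lower arms, 20p differed most. Its WT libraries had 532, 545 and 560 sites per bin as lowest, median and highest, and its MGMT libraries 386, 387 and 492. The value of 492 was that of MGMT replicate 1 after 1 exposure, and the other 5 MGMT libraries lay between 386 and 390. The log2 difference was -0.44 ± 0.054 (SE, n = 6 and 6; limma adjusted p = 6.8e-05), a fold of 0.739, and it was -0.49 without replicate 1 after 1 exposure. With sites of every score it was -0.47 and did not pass (limma adjusted p = 0.072), and 1q, 3q and 16q then did not pass either (0.12, -0.076 and 0.10; limma adjusted p = 0.26, 0.40 and 0.23). The pair of that replicate also differed least on 5q, by -0.049, where the arm as a whole differed by -0.16 ± 0.017 (SE; limma adjusted p = 3.1e-05). The other lower arms were 3p (-0.13 ± 0.017, SE), 7q (-0.12 ± 0.014), 21q (-0.11 ± 0.027), 18q (-0.085 ± 0.016), 8q (-0.083 ± 0.011) and 3q (-0.079 ± 0.013). Without that replicate these were -0.14 (3p), -0.12 (7q), -0.14 (21q), -0.10 (18q), -0.084 (8q) and -0.077 (3q), 5q was at -0.18, and all passed (limma).

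On 20q the difference of -0.20 ± 0.078 (SE) did not pass (limma adjusted p = 0.070). The MGMT libraries had 512, 542 and 721 sites per bin as lowest, median and highest, and the WT libraries 605, 632 and 718. Both highest values were again replicate 1 after 1 exposure. Without that replicate 20q differed by -0.25 (limma adjusted p = 0.00033), and after a G+C loess by -0.22 (limma adjusted p = 6.0e-06), and it passed in both. With same-numbered libraries as a block it also passed, at -0.20 (limma adjusted p = 0.0051). From G sites alone it did not (-0.19; limma adjusted p = 0.15). The number of arms called was likewise sensitive to these libraries: it was 20 without the replicate in both lines and 27 without the MGMT library alone, 21 of them lower. All 14 arms above were among the 27. On the other arms that did not pass the differences lay between -0.060 and 0.047.

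**Figure D3:**
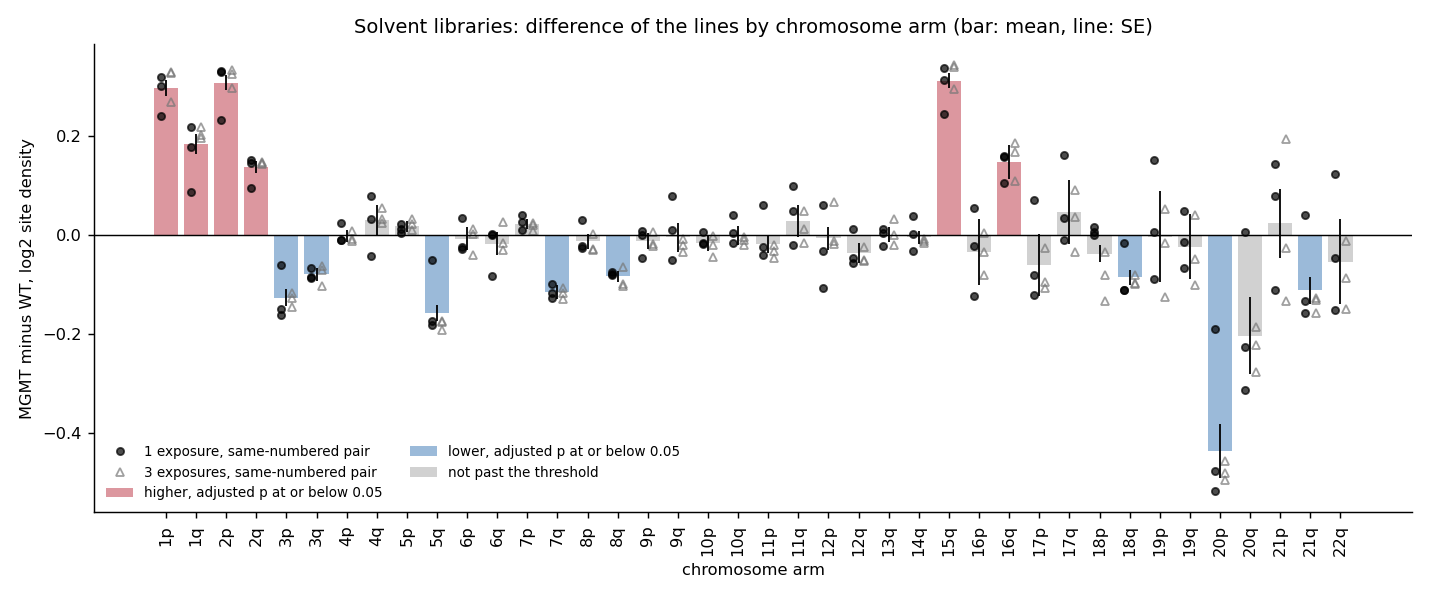
MGMT minus WT difference of log2 site density for the 40 arms (horizontal axis), with the mean (bar), its SE (line) and the 6 same-numbered pairs (filled circles after 1 exposure, open triangles after 3); red and blue bars passed the test. The arms 1p, 2p and 15q lie near 0.30, 20p lies at -0.44, and on 20p 1 pair after 1 exposure lies at -0.19.

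Within arms the difference moved in steps. A partition of each arm into stretches of constant difference, used as a description and chosen after the profile was seen, gave 102 plateaus with 62 breaks inside arms, and 14 of 40 arms had no break. The median difference was at least 0.1 above 0 in 30 plateaus (549 bins) and at least 0.1 below 0 in 25 (462 bins). There were 29 plateaus of at least 20 bins with under 5% of bins called, and their medians lay between -0.072 and 0.036. These long quiet stretches covered 1562 bins and had a central value of -0.015. They were picked for having few called bins, which keeps their medians near 0.

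Chromosome 1 held the most steps. The first 21 Mb of 1p had a median of 0.52, the bins from 21 to 81 Mb 0.35 and those from 81 to 97 Mb 0.19. From 97 to 102 Mb the median was -0.24, with all 5 bins called lower, and from 111 to 122 Mb it was 0.35 again. On 1q it was 0.39 in the 3 tested bins from 124 to 144 Mb, 0.21 from 144 to 177 Mb, -0.12 from 177 to 192 Mb, 0.19 from 192 to 208 Mb, -0.088 from 208 to 218 Mb, 0.18 from 218 to 227 Mb and 0.42 from 227 Mb to the end. The sign of the difference thus changed repeatedly along 1 arm. The plateau from 124 to 144 Mb is the least certain of these: 2 of its 3 bins were called, and its pairs ran from -0.23 (replicate 1 after 1 exposure) to 0.50. Chromosome 2 was simpler: 2p stayed between 0.24 and 0.36 in its 3 plateaus, 2q stood at 0.28 up to 115 Mb, near 0 from 115 to 177 Mb apart from 3 bins at -0.15, and at 0.27 from 177 Mb on.

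The widest differences were in the proximal part of 15q. From 23 to 29 Mb the 6 bins had a median of 0.92, within an arm that stood at 0.34 from 29 to 76 Mb. In the 6 pairs the mean of these bins ran from 0.61 to 1.01. The bin with the largest rise, from 23 to 24 Mb, had a log2 difference of 0.97 ± 0.066 (SE; limma voom adjusted p = 4.0e-07), a fold of 1.96. Its MGMT libraries listed 220 to 1111 sites and its WT libraries 123 to 676, and the 6 pairs differed by 0.33 to 1.14. The 6 bins with the largest rise in the genome were these 6, by the rule that ranked called bins with 6 pairs of the same sign. They hold the starts of 25 protein-coding genes. The next 4 by this rule lay at 11 to 12, 0 to 1 and 13 to 14 Mb of 1p and at 42 to 43 Mb of 17q, between 0.56 and 0.60. The first bin of 1p (0.59) stood at -0.31 when sites of every score were used and then did not pass (limma voom adjusted p = 0.13).

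Steps in the other direction were widest at the start of chromosome 3 and on 17q. The first 3 bins of 3p had a median of -0.68, those from 3 to 25 Mb -0.41, and the rest of the arm 0.00012. The bin from 1 to 2 Mb had the largest fall among called bins with 6 pairs of the same sign, at -0.69 ± 0.041 (SE; limma voom adjusted p = 2.2e-07), a fold of 0.621. On 3q the bins up to 163 Mb stood at 0.0077 and those beyond at -0.24. On 7q a plateau of -0.44 from 92 to 109 Mb was followed by -0.33 from 109 to 121 Mb, -0.025 from 121 to 134 Mb and 0.15 to the end of the arm. On 20q the bins from 29 to 58 Mb had a median of -0.24 and the last 7 bins 0.010.

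Chromosome 17q carried both directions within few megabases. The bins from 26 to 33 Mb had a median of -0.52, those from 40 to 45 Mb 0.50 and those from 50 to 60 Mb 0.34, and the plateaus between them lay between -0.036 and -0.034. The arm as a whole differed by 0.047 ± 0.065 (SE) and was not called. Likewise 11q was not called as an arm and held 7 bins, from 60 to 67 Mb, with a median of 0.33. On 16q the bins from 46 to 72 Mb stood at 0.32 and the rest of the arm at -0.065.

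**Figure D4:**
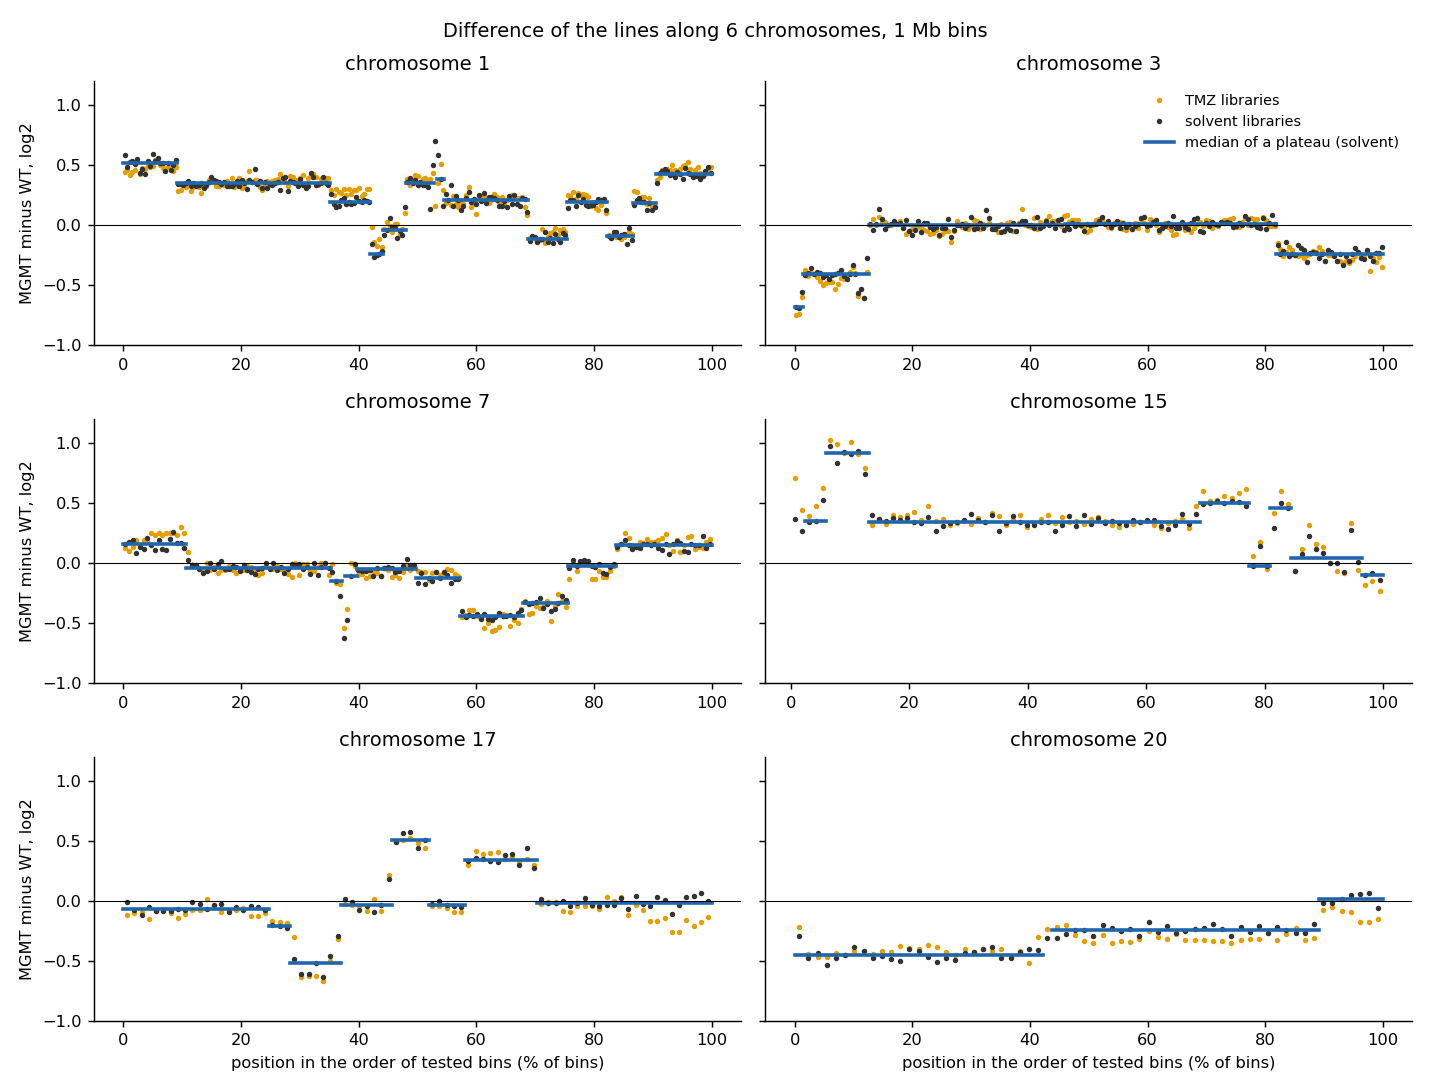
MGMT minus WT difference of log2 site density (vertical axis) for the tested 1 Mb bins of chromosomes 1, 3, 7, 15, 17 and 20 in order (horizontal axis, percent of the chromosome's tested bins); black points are solvent libraries, orange points TMZ libraries of the same lines, and blue lines medians of solvent plateaus. Levels change in steps, such as -0.41 to near 0 on chromosome 3, and the 2 sets of points lie at like levels in most plateaus.

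Runs of called bins in 1 direction were joined into segments, which were then measured in libraries that had not been used to find them. A segment had at least 3 called bins on 1 arm, with at most 2 tested bins between them. There were 38, 16 higher and 22 lower in the MGMT line, with 3 to 97 bins each. They covered 872 bins (31.7% of those tested) that hold the starts of 6311 protein-coding genes, and 803 of the 838 called bins lay in them. In the 12 TMZ libraries of the lines all 38 had the direction seen under solvent, and 36 passed (94.7%; exact permutation test within exposure number, adjusted over the 38 segments). The 2 that did not pass were both lower and lay on 12q (positions 37000001 to 46000000; TMZ difference -0.049, adjusted p = 0.13, exact permutation) and 18q (60000001 to 73000000; -0.045, adjusted p = 0.051, exact permutation). Without replicate 1 after 1 exposure of the TMZ libraries 37 passed. As background, 23 of all 40 arms passed in the 12 TMZ libraries (57.5%, limma). Of these arms, 9 were among the 26 not called under solvent. Of 1 Mb bins, 910 passed there (limma voom). Arms and bins were not tested as the segments were, so the shares are not strictly alike. The TMZ libraries are of cells of the same 2 lines, so they repeat the comparison of the lines and not that of independently made lines.

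The 10 longest segments had the following values. The longest covered positions 1 to 97000000 of chromosome 1, with 97 of 97 bins called and 916 gene starts. It had 401, 410 and 414 sites per bin in the MGMT solvent libraries (lowest, median, highest) and 310, 320 and 340 in the WT ones, a log2 difference of 0.34. In the TMZ libraries it had 410 and 436 as lowest and median in the MGMT line, against 315, 343 and 358 in the WT line, a difference of 0.36 with no overlap (exact permutation, p = 0.005, the smallest possible; adjusted 0.0063). The second covered 2p from 1 to 92000000, at 0.31 under solvent and 0.35 under TMZ, and the third 15q from 20000001 to 92000000, at 0.36 and 0.38. On 2q the segment from 177000001 to 242000000 differed by 0.28 in both sets. On 1q the segment from 124000001 to 176000000, with 35 tested bins, differed by 0.21 under solvent and by 0.21 under TMZ. The segment from 218000001 to 249000000 differed by 0.36 under solvent and by 0.38 under TMZ. All of these were higher in every one of the 6 pairs of either set.

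The other 4 of the 10 longest were lower. On 7q, from 88000001 to 121000000, the MGMT libraries had 398, 405 and 439 sites per bin and the WT libraries 515, 524 and 533. The difference was -0.36 under solvent and -0.39 under TMZ. On 3q, from 164000001 to 198000000, it was -0.24 and -0.26. The 2 segments of 5q, from 50000001 to 104000000 and from 136000001 to 168000000, were at -0.18 and -0.16 under solvent and at -0.092 and -0.11 under TMZ, and in the second the lines overlapped under TMZ. All 10 passed in the TMZ libraries at the smallest possible p of 0.005 (exact permutation, adjusted 0.0063).

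The naked DNA libraries gave the same sides. They are labelled as replicate 1 (non-transfected), 2 (WT) and 3 (MGMT), so the cells of origin and the replicate number cannot be told apart. In 1 library per line, with no replicate check, MGMT minus WT had the solvent direction in all 38 segments and all 14 called arms. Most arms not called under solvent also kept their sign, with 4p, 6p, 9p, 10q, 14q and 21p as the exceptions. The shared direction is thus not particular to the called arms. On 20p it was -0.45, on 15q 0.34 and on 2p 0.35. Naked DNA of the non-transfected cells differed from that of WT by less than 0.05 on the log2 scale in 34 of the 38 segments, a limit chosen after the values were seen. Its differences ran from -0.15 to 0.052 over the segments, and on the same 3 arms they were -0.0072, -0.020 and -0.0048. Most arms, called or not, also lay within 0.05, all but 4q, 17p, 17q, 19p, 19q, 20q, 21p and 22q. Between the lists of breaks, 48 of the 62 solvent breaks (77.4%) lay within 1 Mb of a break in the TMZ libraries, and 48 of the 79 TMZ breaks (60.8%) within 1 Mb of a solvent break.

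**Figure D5:**
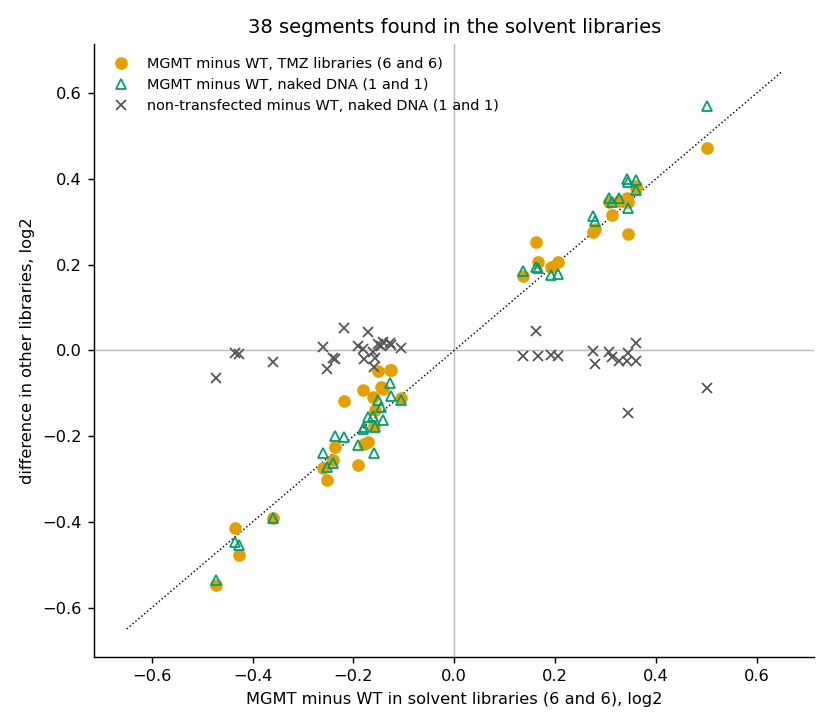
For the 38 segments, the MGMT minus WT log2 difference in the solvent libraries (horizontal axis) against the difference in other libraries (vertical axis): TMZ libraries of the lines (orange circles), naked DNA of the lines (green triangles) and naked DNA of non-transfected minus WT cells (crosses); the dotted line marks equal values. The circles and triangles lie on the solvent side of 0 in all 38, and 34 crosses lie within 0.05 of 0.

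Genes of the lists were assigned to the bin that holds their start, so each value belongs to the 1 Mb bin and not to the gene alone. Of 22 genes altered in glioblastoma, 4 lay in bins that were higher in the MGMT line, 6 in bins that were lower and 12 in bins that did not pass, with a median difference of -0.036 against -0.0068 over all tested bins, of which 18.2% were higher and 12.3% lower. Among the higher ones were the transcription factor MYCN (0.29 ± 0.049, SE; limma voom adjusted p = 0.00038), the metabolic enzyme IDH1 (0.25 ± 0.043) and the oncogene MDM4 (0.22 ± 0.062; limma voom adjusted p = 0.015). The MDM4 bin was higher in all 6 pairs, while those of MYCN and IDH1 were higher in 5. The bin of MDM4 did not pass with sites of every score (limma voom adjusted p = 0.069), and those of MDM4 and IDH1 did not pass from G sites alone (0.11 each).

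The lower ones were led by NF1, a negative regulator of RAS whose gene spans positions 31094977 to 31377675 of chromosome 17 (-0.46 ± 0.077, SE; limma voom adjusted p = 0.00027). The receptor kinase MET (chromosome 7, 116672196 to 116798377) lay in a bin at -0.40 ± 0.039 (SE; limma voom adjusted p = 4.8e-06). The cell cycle kinase CDK6 (-0.40 ± 0.046), PIK3CA, the catalytic subunit of PI3K (-0.30 ± 0.042), its regulatory subunit PIK3R1 (-0.25 ± 0.040) and the stem cell factor SOX2 (-0.22 ± 0.038) followed. Each of these 6 bins was lower in 6 of 6 pairs, and that of SOX2 did not pass from G sites alone (limma voom adjusted p = 0.13). The bins of MET and CDK6 lie in 1 segment of 7q, and those of PIK3CA and SOX2 in 1 segment of 3q. The 6 bins are thus not 6 separate differences. The bin of EGFR, the receptor most often amplified in glioblastoma, differed by -0.042 ± 0.050 (SE) and that of the cell cycle inhibitor CDKN2A by 0.039 ± 0.046, and neither passed.

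Of 17 genes for the repair of alkylated bases and mismatch repair, 4 lay in higher bins, 1 in a lower bin and 12 in bins that did not pass, with a median of 0.0031. Over all tested bins 30.5% were called in either direction, so the 5 of 17 are near the background. The 17 genes lay in 16 bins, so the starts of 2 of them are 1 measurement. MSH6, a mismatch recognition protein, starts in a higher bin of 2p (0.33 ± 0.055, SE; limma voom adjusted p = 0.00027). PMS1, a MutL homologue (0.35 ± 0.043), and the exonuclease EXO1 (0.40 ± 0.050) also lay in higher bins. MSH3, another mismatch recognition protein, lay in a lower bin of 5q (-0.25 ± 0.043; lower in 5 of 6 pairs). From G sites alone the bins of MSH6 and MSH3 did not pass (limma voom adjusted p = 0.052 and 0.079). The bin that holds the start of MGMT differed by 0.099 ± 0.067 (SE) and did not pass (limma voom adjusted p = 0.38), with 0.043 to 0.14 when each library was left out, the lowest without MGMT replicate 1 after 1 exposure. In the TMZ libraries it differed by 0.11 ± 0.039 (SE) and passed (limma voom adjusted p = 0.042). The plateau that holds this bin, 8 bins from 126 to 134 Mb of 10q, had medians of 0.12 under solvent and 0.15 in the TMZ libraries. The value of the bin is thus not particular to it.

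Of 10 cancer genes of chromosome 20, all on 20q, 7 lay in bins that were lower in the MGMT line and 3 in bins that did not pass, with a median of -0.24. Over all tested bins 12.3% were lower, and on 20q itself 21 of 36 were. The list was made with results for chromosome 20 known, so its direction is not independent evidence. The 7 were BCL2L1, an inhibitor of apoptosis, the cell cycle factors E2F1 and MYBL2, the kinases SRC and AURKA, the topoisomerase TOP1 and the transcription factor ZNF217. Their differences ran from -0.29 (E2F1) to -0.21 (TOP1), and all were lower in 6 of 6 pairs. From G sites alone all 7 kept the lower side and none passed (limma voom adjusted p between 0.057 and 0.17). With sites of every score SRC, TOP1, MYBL2 and ZNF217 did not pass (limma voom adjusted p between 0.069 and 0.47). E2F1 also did not pass without 1 of 3 libraries (WT replicate 1 after 1 exposure, MGMT replicate 3 or WT replicate 3 after 3 exposures; limma voom adjusted p = 0.067, 0.056 and 0.059), SRC not without the first of these (0.060), and ZNF217 not without any of 5 libraries. The 5 were MGMT replicate 3, WT replicate 1 and WT replicate 3 after 1 exposure and WT replicates 2 and 3 after 3 (limma voom adjusted p between 0.059 and 0.072). The bins of ASXL1 (-0.25 ± 0.094, SE; limma voom adjusted p = 0.063) and NCOA3 (-0.24 ± 0.092; limma voom adjusted p = 0.071) had like values with larger errors. Both passed without replicate 1 after 1 exposure (-0.28 and -0.31; limma voom adjusted p = 1.9e-05 and 2.6e-05), as they did after a G+C loess and in the TMZ libraries. The bin of GNAS, the last gene of the list along the arm, stood at -0.021 ± 0.061. Of the 22 listed genes called under solvent, all had the same sign in the TMZ libraries and 21 passed there, beside 753 of all 838 called bins that passed there in the same direction. The exception was MDM4, at 0.13 ± 0.062 (SE; limma voom adjusted p = 0.14), which under solvent also did not pass without MGMT replicate 3 after 3 exposures (limma voom adjusted p = 0.062).

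Gene content of the bins and base composition of their marked sites were compared last. Bins with at most 1 gene start had a median difference of 0.00082 and 27.3% of them were called, and bins with over 10 had -0.013 and 30.97%. Between them, bins with 2 to 4 had -0.018 and 30.7%, and bins with 5 to 10 had -0.0039 and 32.7%, so neither value ran in order of gene content. Over quartiles of the G+C share of marked sites the medians ran from -0.014 to 1.6e-05 and the called share from 26.9% to 33.6%. This share comes from the same solvent libraries and not from the genome sequence. These are descriptions over bins, which are not independent replicates.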

How the data were processed

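The deposited lists give chromosome, position, strand, base and a score from 0 to 42 for each site; what the score measures is not given in the sources used here. Reads were processed by the authors with Trimmomatic, cutadapt, Bowtie2 2.3.5.1, SAMtools 1.12, GATK 4.2.0.0 and bedtools 2.29.2 on GRCh38, per the submitters' processing notes. Sites with a score of at least 30 on autosomes and M were used here. Distinct sites, not reads, were numbered per 1 Mb bin (at least 10 sites in at least 3 libraries), with 214 to 1426 sites per bin in the median of a library. Library sizes came from the trimmed mean of log ratios. The tests were limma 3.58.1 (voom for bins, lmFit and eBayes for arms) in R 4.3.3 and exact permutation over samples in Python 3.11.15, at an adjusted p of 0.05. Arms were split at the cytogenetic centromere in whole Mb, entered by hand. Genes came from RefSeq (GRCh38.p14), and all 49 listed genes matched and were tested. No genome sequence was used, so the G+C share of a bin was that of its marked sites, pooled over the solvent libraries. Bins were named by the largest difference, up to 10 per direction, among called bins with 6 pairs of the same sign, segments as the 10 longest, and genes from fixed lists, whose other members are given as counts. Values of some listed genes are not reported here. Members and lists were chosen with earlier results of these data known.

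The test of bins was checked on simulated data of 2752 bins: it recovered 85% of 100 bins changed 1.25-fold and 99% of 100 changed 2-fold, and 11 of 195 calls were false. For arms, 40 were tested and those changed were changed 1.2-fold; 100% of them were recovered in each of 3 forms. The first form raised 5 arms in 1 data set and called 8 of 35 unchanged arms (22.9%), with a scale shift of -0.040. Over 20 data sets each, 37 of 700 unchanged arms were called with 5 arms raised (5.29%), 10 of 680 with 3 raised and 3 lowered (1.47%), and 2 of 800 with none changed (0.25%). The simulations drew noise independently for each bin, shifted whole arms evenly and gave every arm the same assumed spread between libraries. In the data the SD over pairs ran from 0.010 (5p) to 0.14 (21p) and many steps covered parts of arms. The simulated rates therefore need not hold for these data.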

Additional observations from a re-analysis of the deposited data

Results flagged for a closer look

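The base composition of replicate 1 after 1 exposure lay far from the other libraries. Among the 6 libraries of a line, which join both exposure numbers, the MGMT library of that replicate had G at 43.7%, A at 21.7%, C at 12.5% and T at 22.01% of autosomal sites, each separated from the other 5 by more than Dixon's limit. It was likewise apart in the purine share before G (85.9%), the forward strand share on M (42.7%), the log2 density in genes over the rest (0.32) and the log2 rate in the MGMT gene (6.97). The WT library of the same replicate was apart in its T share (29.6%) and in the density in genes over the rest (0.28). In all, 20 sets of 6 libraries were examined, and chance marks about 1 in 20. The G share moved in opposite directions in the exposure numbers: all 3 pairs after 1 exposure were higher in the MGMT line (mean 5.41 percentage points) and all 3 after 3 exposures were lower (-0.69), and the difference of -6.10 points was not tested. The 5.41 rests largely on replicate 1, whose pair differed by 15.9 points.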

How the results depend on the processing

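The number of bins called, 838, stayed within 1.5 times under the other scalings, filters and models, from 632 with sites of every score to 1207 with sample quality weights. It was 412 of 2738 from G sites alone, which hold fewer sites per bin in nearly as many bins. It was 198 of 569 with 5 Mb bins and 1523 of 5453 with 0.5 Mb bins, where fewer or more bins were tested. Leaving out each library gave 727 to 1037 bins, and 1031 passed without replicate 1 after 1 exposure in both lines. Arms called, 14, fell to 11 with sites of every score, where 4 calls were lost and 1 was new. They went from 14 to 27 over libraries left out, and to 23 both with the replicate block and G+C loess and in the TMZ libraries. No bin passed the interaction in any setting in which it was run. The cause of these changes was not tested.

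Same-numbered libraries of the 2 lines correlated at -0.031 to 0.73 in their deviations over bins, not above 0.1 in every pair, so the numbers entered no fit of the results as a block. They served only to describe signs and in the rule that named bins. All 6 same-numbered pairs of the lines also shared more sites, against the number expected, than the median pair of libraries (1.63 to 26.2 times). The main fits leave this link out. With the replicate block 1027 bins, 15 arms and 35 of 38 segments passed, and 1143 bins with the block and G+C loess (571 higher, 572 lower). The arm 20q passed with the block at -0.20 (limma adjusted p = 0.0051), and so did the bins of ASXL1 and NCOA3 (limma voom adjusted p = 1.7e-06 and 2.1e-05). From bases other than G all 38 segments passed.

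With sites of every score the first bin of chromosome 1 turned to -0.31, and the uncalled bins of EGFR and GNAS to 0.0010 and 0.065. The uncalled bin of CDKN2A stood at -0.022 in the TMZ libraries. Leaving out 1 library gave 0.043 to 0.14 (bin of MGMT), -0.088 to -0.026 (EGFR), -0.011 to 0.049 (CDKN2A) and -0.081 to 0.019 (GNAS). Over all 40 arms and 23 settings, 920 values held 4 lost calls, 60 new calls and 40 changes of sign. Over the bins of listed genes, 1200 values held 29 lost calls, 49 new ones and 65 changes of sign. Neither set of sign changes involved a value called in either setting.

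Without replicate 1 after 1 exposure the differences in percentage points were -0.27 (G), 0.059 (A), 0.14 (C), 0.077 (T), 0.39 (forward strand on M) and -0.70 (purine before G), and on the log2 scale 0.052 (share on M) and -0.00021 (genes over the rest). None passed the exact permutation test with or without it. Leaving out each library gave -1.66 to 4.43 (G), -0.99 to 0.37 (A), -1.28 to 0.55 (C), -2.31 to 0.73 (T), -0.0073 to 0.029 (forward strand), -1.38 to 1.19 (forward strand on M) and -2.38 to 2.13 points (purine). On the log2 scale it gave -0.22 to 0.0015 (share on M) and -0.014 to 0.021 (genes over the rest). The partition into plateaus had 49 to 75 breaks with other penalties. In the shallowest library the median bin held 214 sites, and the reads behind a site are unknown.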
